A study of Canis lupus familiaris with 23 samples.

Results

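The genes described here are 30 genes of cholesterol and fatty acid synthesis, chosen by name: 7 that act from acetyl-CoA to farnesyl diphosphate (the mevalonate steps), 11 that act from farnesyl diphosphate through squalene to cholesterol (the sterol steps), 4 regulators of the pathway, 1 sterol carrier and 7 enzymes that make, lengthen or desaturate fatty acids. They were looked up among the 21420 gene entries of 23 dog libraries. Of the 30, 29 were found by symbol and FADS1 by its RefSeq gene number, and all were listed in every library. A total of 28 passed the filter on low counts. SREBF1 and STARD4 did not, with 198 and 55 counts over all libraries, so they have levels and no test. Counts of FADS1 and MSMO1 held fractions in 19 libraries and those of NSDHL in 15; how reads were divided is not given in the sources used here, so the values of these 3 genes are uncertain.

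The libraries were made with CEL-seq2, in which barcoded RNA is amplified in pools and only the 3′ end of each transcript is read. From dog skin came 2 libraries of whole skin, 2 of follicles (a mixture of anagen, the growing phase, and telogen, the resting one) and 2 of interfollicular epidermis, named epidermis from here on. Organoids, spheres of keratinocytes grown from these tissues, were sampled at day 7, early (passages 0 to 1) or later (passages 3 to 6) in culture. Follicle organoids in expansion medium are represented by 5 libraries with an inhibitor of Tgf-beta signalling (3 early, 2 later) and 4 without (2 early, 2 later). Epidermis organoids are represented by 2 libraries, 1 early and 1 later, both with the inhibitor. Later follicle organoids in differentiation medium gave 2 libraries, as did those in that medium lacking Noggin and R-Spondin-1 and those also lacking Forskolin. Noggin is a BMP antagonist, R-Spondin-1 strengthens Wnt signals and Forskolin raises cAMP. The labels name neither a strain nor a genotype, do not say which libraries share a dog or a culture, and name no inhibitor for the differentiation media. The p-values below therefore measure the spread between these libraries, which may be technical.

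Cells build cholesterol from acetyl-CoA through mevalonate, farnesyl diphosphate, squalene and lanosterol. When sterols in the endoplasmic reticulum run low, SCAP carries SREBP2 (the product of SREBF2) to the Golgi for cleavage, and the freed factor turns on the genes of nearly every step. INSIG1 holds SCAP back when sterols are plentiful and is itself a target. SREBP1 (SREBF1) drives mainly the fatty acid genes. In skin, keratinocytes need both lipids for the permeability barrier, and sebaceous glands make large amounts of fatty acids for sebum.

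Total counts ran from 86301, in epidermis replicate 2, to 4822410, and mitochondrially encoded genes took 5.32 to 26.4% of them. A count of 0 allows up to 23.4 CPM (a gene's count on a common library total, scaled between libraries by TMM) in the shallowest library, taking 3 counts as the limit. Summed hair shaft markers stood at 5694 and 7089 CPM in follicles against 440.2 and 54.5 in epidermis, and suprabasal keratinocyte markers at 2892 and 3360.2 against 13548 and 17690.0 CPM. Most of the suprabasal sum in epidermis was KRT10 (8370 and 13281 CPM). IVL alone of that list went the other way, at 1352 and 1382 CPM in follicles against 355 and 335 in epidermis. Organoid libraries were rich in basal keratinocyte markers (27536 to 74133 CPM in expansion medium), and hair shaft markers in the 9 follicle organoid libraries lay between 41.8 and 69.1 CPM. The later epidermis organoid library stood apart, with 831 CPM of hair shaft and 716 CPM of fibroblast markers.

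**Figure D1:**
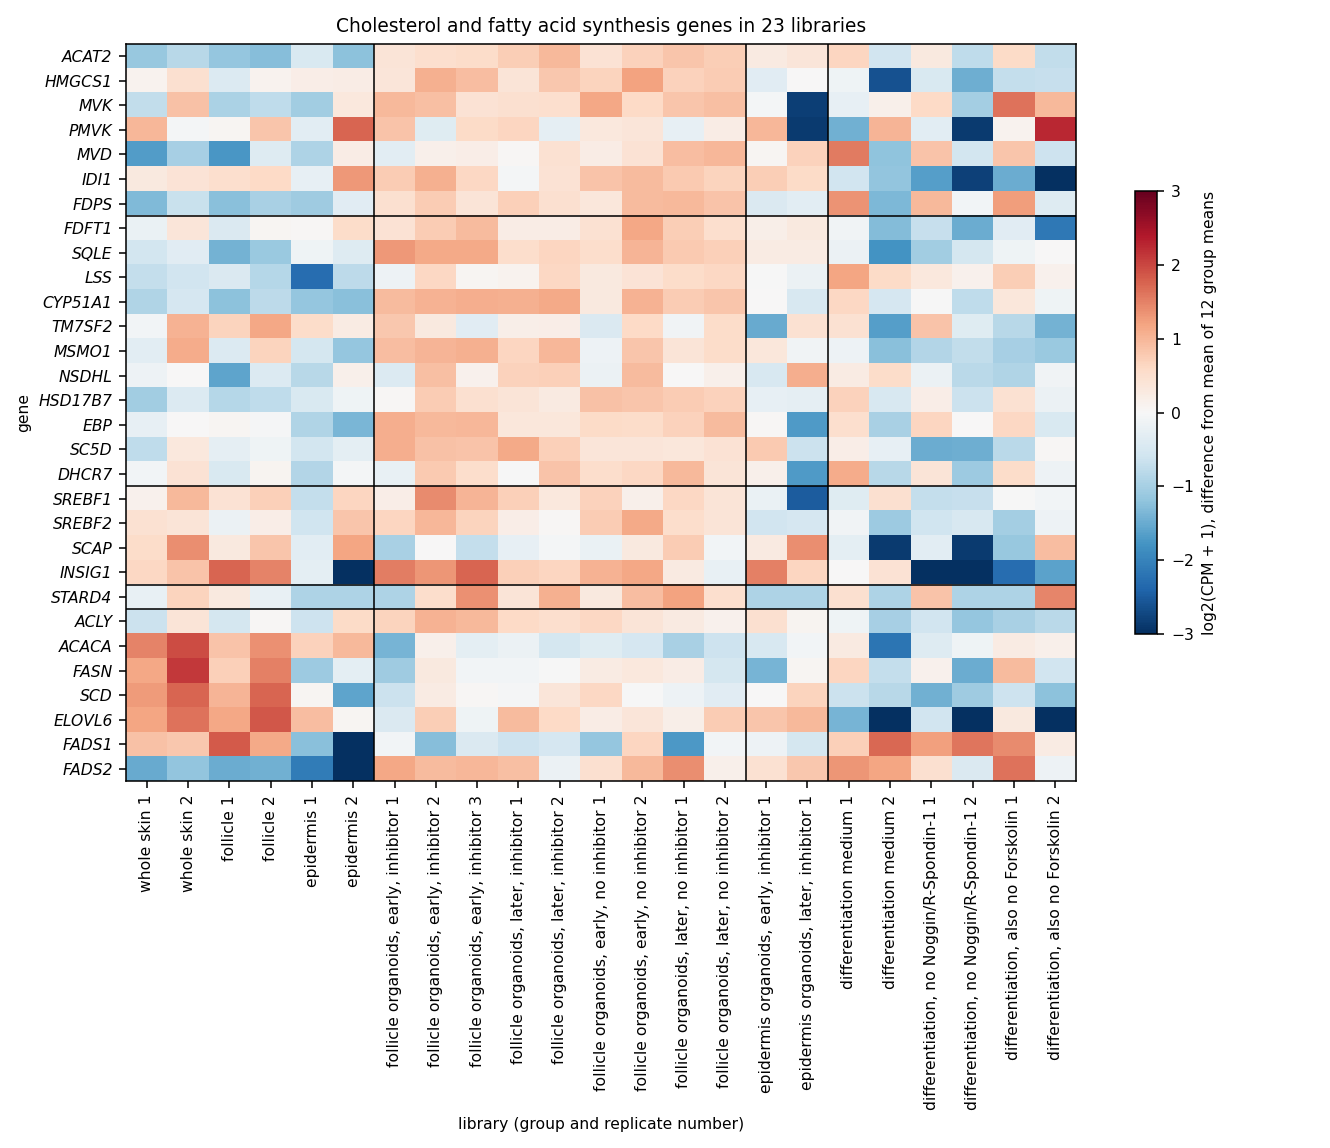
Each column is a library (group and replicate number) and each row a gene, ordered by role (mevalonate steps, sterol steps, regulators, carrier, fatty acid steps). Colour gives log2(CPM + 1) minus the gene's mean over the 12 groups, with the scale ending at 3 in each direction. The mevalonate and sterol rows are mostly red in the 9 follicle organoid libraries and mostly blue in tissue, while ACACA, FASN, SCD and ELOVL6 are red in whole skin and follicle.

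The members did not share a single profile over the 12 groups. As a description over 12 group means (log2(CPM + 1)), which share libraries and scaling, the level of CYP51A1 was closest to that of ACAT2 (r = 0.879) and the level of IDI1 to that of FDFT1 (r = 0.929). ACACA went the opposite way from ACAT2 (r = -0.899). Among genes detected in all 12 groups, the widest ranges of group means were those of FADS2, from 2.43 CPM in epidermis to 58.7 in differentiation medium, of FADS1, from 40.4 CPM in epidermis to 511 in follicle, and of ELOVL6, from 2.51 CPM in differentiation medium to 45.4 in follicle. SREBF2, the gene of the main activator of the sterol genes, had the narrowest, from 35.0 CPM in early epidermis organoids to 103 in early follicle organoids without the inhibitor. The low end of FADS2 rests on 2 counts and that of ELOVL6 on 3. Over those groups 3 counts equal 5.56 and 3.38 CPM, so the widths of both ranges are uncertain.

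Among the tissues, follicles carried more RNA of 3 members than epidermis did, and no mevalonate or sterol gene passed the test. INSIG1, SCD and FADS1 were higher in follicles, 3 of 28 members, where 2.79% of all 9888 genes tested passed (2.05% higher and 0.738% lower). SCD, which puts a double bond into stearate and palmitate, stood at 849 and 1409.6 CPM in the follicle libraries and 440.2 and 140.2 in the epidermis libraries (log2 change 1.91 ± 0.47 SE, edgeR adjusted p = 0.0271). FADS1, the delta-5 desaturase of polyunsaturated fatty acids, stood at 634 and 388 against 73.0 and 7.79 CPM (log2 change 3.38 ± 0.74 SE, edgeR adjusted p = 0.0117). The 7.79 CPM is 1 count, in a library where 3 counts equal 23.4 CPM, so the size of the FADS1 change is uncertain. Both follicle libraries lay above both epidermis libraries for each of these desaturases. INSIG1 stood at 52.9 and 44.3 against 12.2 and 0 CPM, again without overlap (log2 change 2.43 ± 0.58 SE, edgeR adjusted p = 0.0237), but the epidermis value rests on 5 counts in all.

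FASN, which makes palmitate, pointed the same way and did not pass: 95.2 and 168 CPM in follicles and 26.8 and 46.7 in epidermis (log2 change 1.98 ± 0.67 SE, edgeR adjusted p = 0.129). Of the 7 fatty acid genes, 6 had a higher level in follicles, with a median log2 difference of 1.14, against -0.34 for the mevalonate steps, 0.30 for the sterol steps and 0.21 for all genes. Without epidermis replicate 2, the shallow library, no member passed. Without either follicle library, and with libraries scaled by their totals, 1 did; the calls of INSIG1 and SCD were also lost when only the compared groups were fitted, and that of INSIG1 with DESeq2.

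Sebaceous and adipocyte markers moved with these genes. The 10 sebaceous markers summed to 706 and 1948 CPM in follicles, 1061 and 2247 in whole skin and 192 and 280.4 in epidermis. The 7 adipocyte markers summed to 629.5 and 1156 CPM in follicles, 1053 and 1041 in whole skin and 136 and 46.7 in epidermis. AWAT2 and MOGAT1 of the sebaceous list had no count in any tissue library, and no adipocyte marker was at 0 throughout. Their part in the result was not tested. In bulk RNA, fewer cells of a type and less RNA per cell cannot be told apart. From the other genes of fatty acid metabolism, 2 of 29 tested were higher in follicles (ELOVL3, 3.73 ± 0.83 SE, and FA2H, 4.18 ± 1.07 SE, on the log2 scale, both also in the sebaceous list) and 1 lower (ACSL1, an acyl-CoA synthetase, -1.85 ± 0.38 SE). Of 16 other sterol genes tested, SCARB1, the HDL receptor, was higher (2.05 ± 0.49 SE).

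Against whole skin, which contains both, epidermis had less SCD: 440.2 and 140.2 CPM against 1029.7 and 1413 (log2 change -2.02 ± 0.47 SE, edgeR adjusted p = 0.0269). It was the only member of 28 to pass, where 1.56% of all genes did (0.162% higher and 1.4% lower). FASN (26.8 and 46.7 against 129.8 and 255 CPM) and FADS1 (73.0 and 7.79 against 326 and 309 CPM) were lower in both epidermis libraries than in both skin libraries and did not pass (edgeR adjusted p = 0.0686 for each). The 7.79 CPM of FADS1 is again 1 count. The SCD call was lost without either skin library, without epidermis replicate 2, with the replicate number as a block and when only the compared groups were fitted. Follicle against whole skin gave no called member and no called gene of 9888 (0%) at an adjusted p under 0.05 in edgeR; at an unadjusted p under 0.05, 1 member and 144 of all genes passed, and DESeq2 and limma-voom each called 0 genes. The smallest p among the members was that of INSIG1, at 52.9 and 44.3 CPM in follicles and 23.9 and 28.1 in skin (log2 difference 0.91 ± 0.40 SE, unadjusted p = 0.0332, edgeR adjusted p = 1).

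In culture, follicle organoids carried more RNA for the mevalonate and sterol steps than follicles did, and less for making and desaturating fatty acids. Across the 9 organoid libraries in expansion medium against the 2 follicle libraries, 10 members rose and 6 fell of 28, where 9.01% of all genes tested rose and 19% fell (28% in all). By role, 3 of 7 mevalonate genes and 6 of 11 sterol genes rose and none of either fell, while 5 of 7 fatty acid genes fell and 1 rose. The median log2 change was 1.26 for the mevalonate steps, 0.87 for the sterol steps, -1.20 for the fatty acid steps and 0.00 for all genes. With DESeq2's size factors in place of TMM, that last median stood at -0.17 and 8 members rose and 6 fell; with plain library totals, it stood at -0.19 and 7 rose and 6 fell.

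Among the mevalonate steps, ACAT2, which joins 2 acetyl-CoA units, stood at 41.0 and 38.0 CPM in the follicle libraries and at 123 to 185 CPM (median 152) in the organoid libraries (log2 change 1.92 ± 0.39 SE, edgeR adjusted p = 0.000581). FDPS, which makes farnesyl diphosphate, the branch point to sterols and prenylated proteins, went from 302 and 367 CPM to 910.5 to 1405 CPM (median 1179.7) (log2 change 1.79 ± 0.54 SE, edgeR adjusted p = 0.0161). Every organoid library lay above both follicle libraries for each of these. MVK, mevalonate kinase, rose as well, from 2.65 and 3.17 CPM (7 counts in all) to 8.52 to 14.8 CPM (median 11.7) (log2 change 1.83 ± 0.56 SE, edgeR adjusted p = 0.0183). HMGCS1 and MVD also lay above both follicle libraries in all 9 organoid libraries and missed the threshold (edgeR adjusted p = 0.0938 and 0.0681). IDI1 and PMVK overlapped with tissue, at log2 changes of 0.11 ± 0.32 and -0.33 ± 0.58 SE.

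Of the sterol steps, SQLE had the largest rise. SQLE, squalene epoxidase, a rate-limiting oxygenase, stood at 18.5 and 22.8 CPM in follicles and 73.6 to 127 CPM (median 88.8) in organoids (log2 change 2.12 ± 0.34 SE, edgeR adjusted p = 5.36e-05). CYP51A1, the lanosterol 14-demethylase, stood at 39.7 and 53.9 CPM in follicles and 116 to 208 CPM (median 194) in organoids (log2 change 1.91 ± 0.34 SE, edgeR adjusted p = 0.000179). Both sets were free of overlap. HSD17B7, the 3-keto reductase of sterol C4 demethylation, rose from 60.8 and 64.6 CPM to 113 to 205 CPM (median 178) (log2 change 1.41 ± 0.34 SE, edgeR adjusted p = 0.00352). LSS, which closes squalene epoxide into lanosterol, stood at 19.8 and 14.6 CPM in follicles and 24.4 to 42.6 CPM (median 36.6) in organoids (log2 change 1.09 ± 0.34 SE, edgeR adjusted p = 0.0199). NSDHL, a sterol C4 dehydrogenase, stood at 3.97 and 10.1 CPM in follicles and 10.2 to 27.8 CPM (median 15.6) in organoids (log2 change 1.28 ± 0.45 SE, edgeR adjusted p = 0.0398), and SC5D, the sterol C5 desaturase, at 23.8 and 26.6 CPM and 37.3 to 65.4 CPM (median 48.4) (log2 change 0.87 ± 0.31 SE, edgeR adjusted p = 0.0398). For these 4 too, no organoid library reached down to the follicle libraries. The calls of NSDHL and SC5D were lost in 12 and 13 of 21 alternatives. FDFT1 (squalene synthase), MSMO1, EBP and DHCR7 had positive log2 changes of 0.44 to 0.77 that did not pass. TM7SF2, a sterol C14 reductase, was the single sterol gene with a negative value (-0.74 ± 0.40 SE, not called).

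No tested regulator rose. INSIG1 was lower in organoids, 52.9 and 44.3 CPM in follicles and 12.7 to 52.5 CPM (median 32.3) in organoids (log2 change -0.79 ± 0.29 SE, edgeR adjusted p = 0.044), with ranges that overlapped. The call of INSIG1 was lost in 12 of 21 alternatives. Its mean was 45.6 CPM in early organoids with the inhibitor and 33.6 in early ones without it. In later organoids it was 24.7 CPM with and 15.6 without the inhibitor. SREBF2 stood at 46.3 and 60.2 CPM against 53.4 to 117 CPM (median 82.7) and SCAP at 7.94 and 12.04 against 2.71 to 11.4 CPM (median 5.91), neither called. The untested SREBF1 was low everywhere, 6.61 and 8.24 CPM in follicles and 5.29 to 13.9 CPM (median 7.69) in organoids, and STARD4, which moves sterols between membranes, did not exceed 4.28 CPM in any library.

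On the fatty acid side, ACACA, the acetyl-CoA carboxylase that commits carbon to fatty acids, stood at 35.7 and 51.3 CPM in follicles and 6.78 to 21.50 CPM (median 13.2) in organoids (log2 change -1.70 ± 0.34 SE, edgeR adjusted p = 0.00059). SCD fell from 849 and 1409.6 CPM to 270.4 to 649 CPM (median 416) (log2 change -1.38 ± 0.32 SE, edgeR adjusted p = 0.00225) and FADS1 from 634 and 388 to 52.4 to 277 CPM (median 123) (log2 change -1.97 ± 0.43 SE, edgeR adjusted p = 0.00138). All 9 organoid libraries lay below both follicle libraries for each of the 3. FASN fell with them, from 95.2 and 168 CPM to 27.1 to 72.2 CPM (median 57.4) (log2 change -1.20 ± 0.39 SE, edgeR adjusted p = 0.026), as did ELOVL6, which lengthens palmitate, from 34.4 and 56.4 CPM to 10.8 to 29.7 CPM (median 19.4) (log2 change -1.17 ± 0.41 SE, edgeR adjusted p = 0.0366), again without overlap. The call of ELOVL6 was lost in 9 of 21 alternatives. FADS2, the delta-6 desaturase that acts before FADS1 in the same route, moved the other way: 7.94 and 8.24 CPM in follicles and 21.2 to 64.6 CPM (median 47.1) in organoids (log2 change 2.37 ± 0.50 SE, edgeR adjusted p = 0.000938). ACLY, which supplies cytosolic acetyl-CoA to both pathways, was higher in every organoid library (135 and 199 against 215 to 404 CPM (median 294)) and did not pass (edgeR adjusted p = 0.102).

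**Figure D2:**
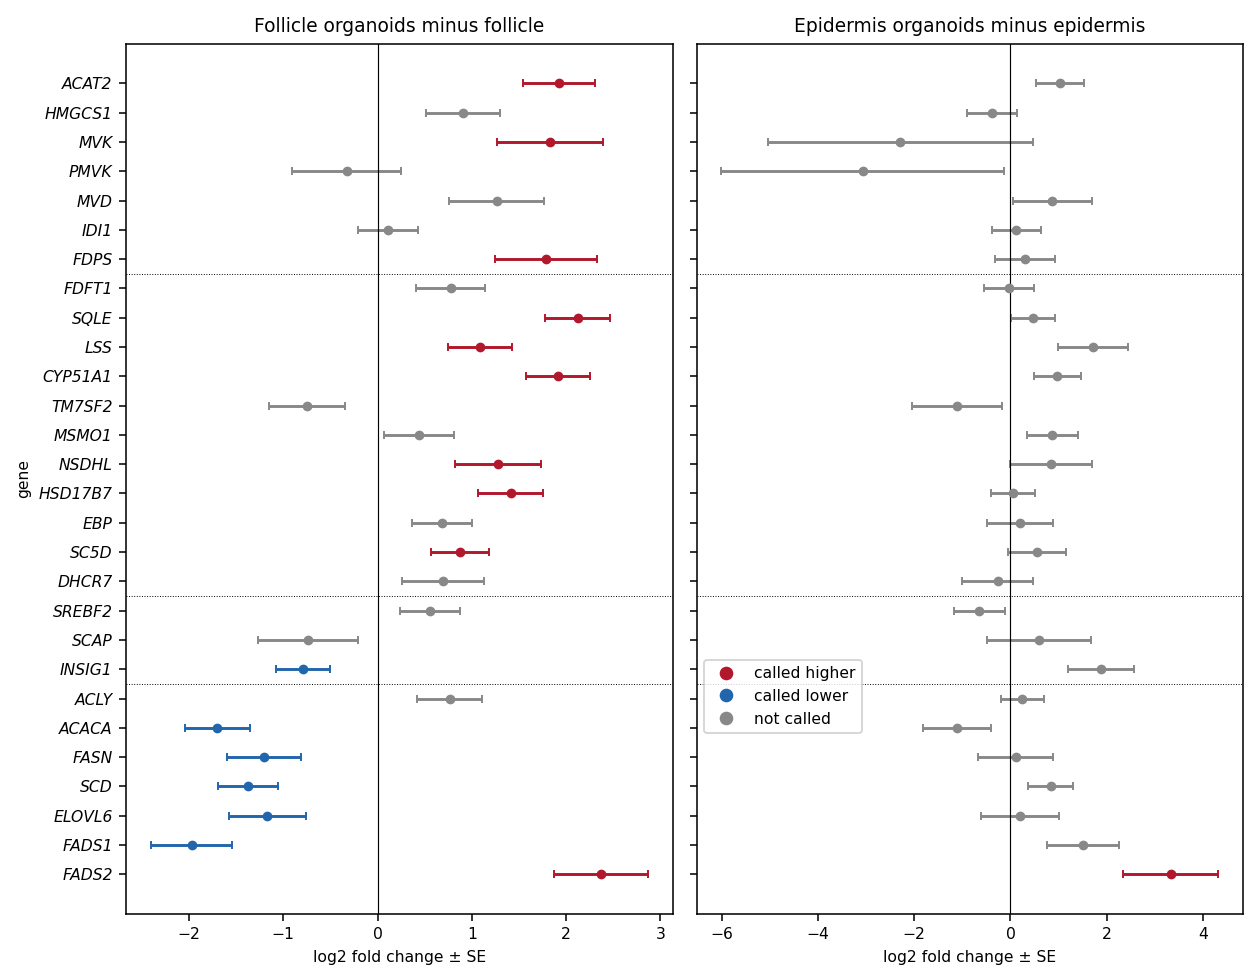
Points give the log2 fold change of each tested gene and bars its SE, for follicle organoids (left) and epidermis organoids (right) against their tissue of origin, by role from top to bottom, with horizontal scales that differ. On the left, SQLE at 2.12 and FADS2 at 2.37 mark the largest rises of their roles and FADS1 at -1.97 the largest fall, while on the right only FADS2 is called.

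Without follicle replicate 1, and likewise without replicate 2, fewer members passed than in the full fit, with 1 library left in that arm. The count of all genes called moved between the alternatives as well, as given at the end. SQLE, ACAT2, CYP51A1 and FADS2 passed under every alternative that was run. Sebaceous markers, at 706 and 1948 CPM in follicles, stood at 15.1 to 111 CPM in the organoids, and the adipocyte sum of 629.5 and 1156 CPM at 77.4 to 664. Of the adipocyte list, FABP4 stood at 161 and 423 CPM in follicles and 32.9 to 626 CPM in organoids. ADIPOQ stood at 148 and 237 CPM in follicles and 1.36 to 5.30 CPM in organoids. PLIN1, PLIN4, CIDEC and LPL also lay below both follicle libraries in all 9 organoid libraries. No marker of either list was at 0 in all 9 organoid libraries, but AWAT2, DGAT2L6 and MOGAT1 each rested on 1 count in 1 library. Basal keratinocyte markers went from 9044 and 9083 CPM in follicles to 44482 to 74133 CPM in organoids, proliferation markers from 164 and 166 to 214 to 543 CPM and fibroblast markers from 7322 and 4416 to 50.5 to 490.3 CPM, none with overlap. The part of these markers in the changes of the members was not tested. With the 2 early organoid libraries numbered 1 left out, whose suprabasal marker sums (26620.0 and 14000.0 CPM) stood above the 3004 to 6002 CPM of the other 7, 15 members passed. These 2 sums came from different genes. With the inhibitor it was mostly IVL (24318 CPM, with KRT10 at 688). Without the inhibitor it was mostly KRT10 (13104 CPM, with IVL at 245).

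Among the 16 tested sterol genes outside the members, 1 rose and 2 fell. The fallers were FAXDC2, a sterol oxygenase relative (-2.38 ± 0.42 SE), and SCARB1 (-1.11 ± 0.32 SE), as log2 changes. Of 29 other fatty acid genes, 14 fell and 1 rose. The 4 with the smallest p were ELOVL3 (-6.62), CPT1A, the entry enzyme of mitochondrial fatty acid oxidation (-4.19), THRSP, a lipogenic regulator (-6.30), and PNPLA2, a triglyceride lipase (-2.87), all as log2 changes. The single riser, named after its value was seen, was FADS3 (1.47 ± 0.44 SE).

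**Figure D3:**
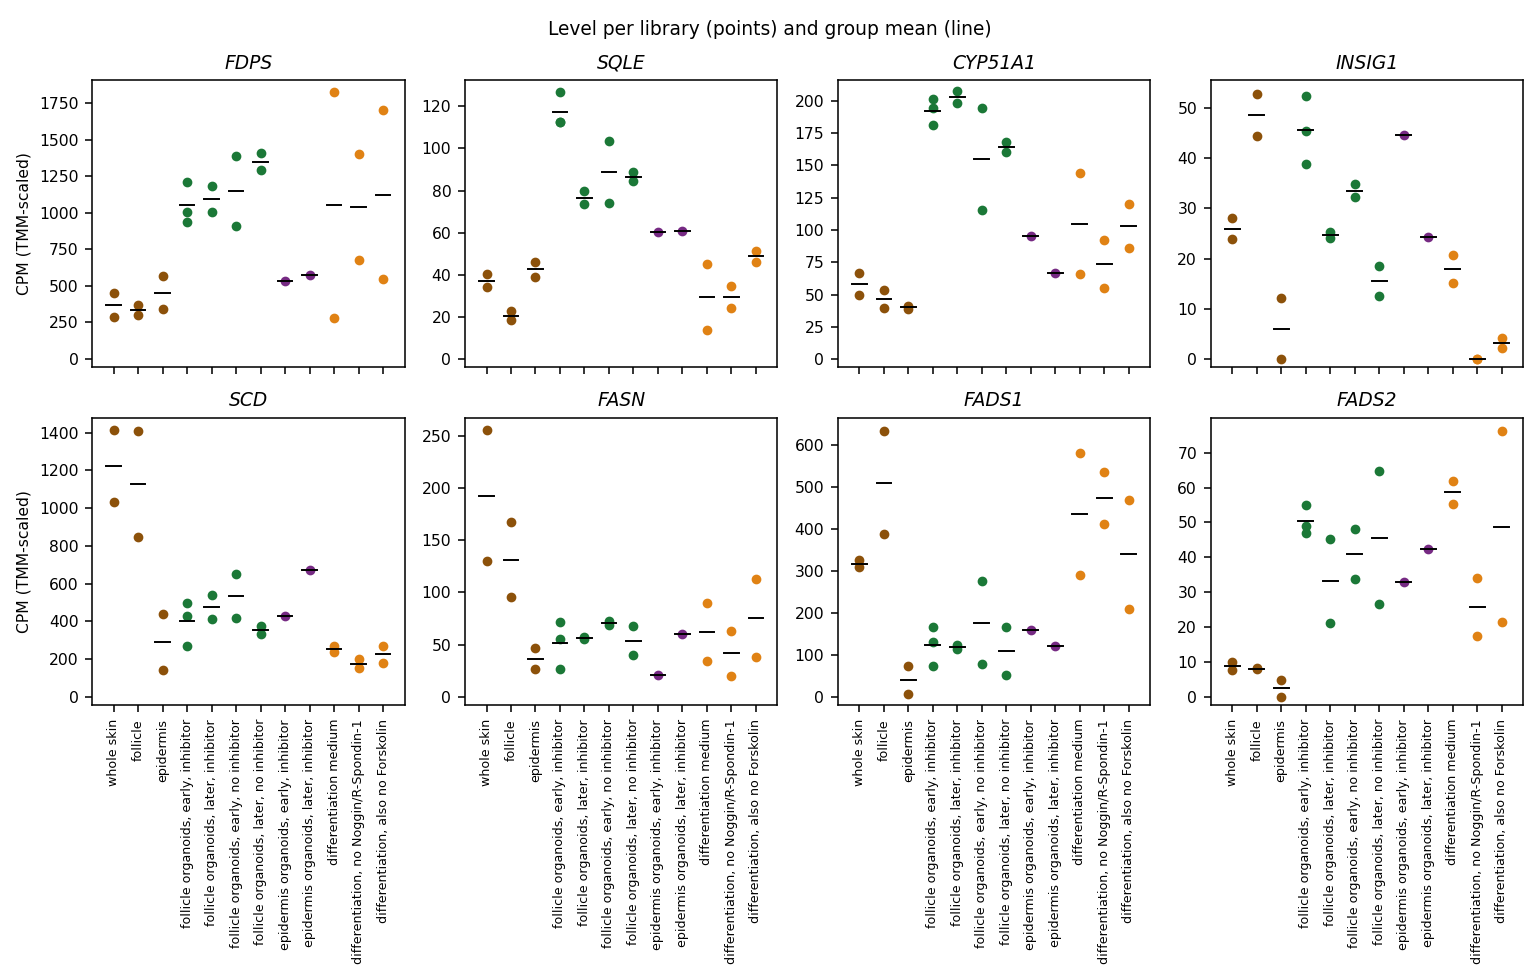
Points are libraries and lines group means of CPM on a linear scale, for 8 genes in the 12 groups, coloured by tissue, follicle organoids, epidermis organoids and differentiation media. FDPS, SQLE and CYP51A1 are higher in follicle organoids than in tissue, the means of SCD and FASN are highest in whole skin and follicle, the mean of FADS1 is lowest in epidermis, and FADS2 is lower in every tissue library than in any organoid library in expansion medium.

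Epidermis organoids, with 1 library at each passage range, differed from epidermis in 1 member of 28, where 11.2% of all genes passed (6.73% higher and 4.5% lower). FADS2 stood at 33.0 and 42.5 CPM in the organoid libraries and 4.86 and 0 in epidermis, the latter from 2 counts in all (log2 change 3.33 ± 0.99 SE, edgeR adjusted p = 0.0337). The call was lost without any single one of these 4 libraries. ACAT2 (113 and 121 against 68.1 and 38.9 CPM), CYP51A1 (95.2 and 66.7 against 41.3 and 38.9 CPM) and INSIG1 (44.7 and 24.3 against 12.2 and 0 CPM) were higher in both organoid libraries and not called. MVK and PMVK had no count in the later epidermis organoid library, where that allows up to 18.2 CPM. The median log2 change of the 28 members was 0.27 and that of all genes -0.14; of the other pathway genes tested, 1 of 16 sterol genes (FAXDC2) and 3 of 29 fatty acid genes (ACSL1 and CPT1A among them) fell.

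The change from tissue to organoid was compared between the origins using the inhibitor groups only. It differed for SCD and FADS1, 2 of 28 members (3.96% of all genes, 3.51% with a higher and 0.455% with a lower difference). SCD changed by -1.37 ± 0.36 SE in follicle organoids and by 0.84 ± 0.46 SE in epidermis organoids on the log2 scale, a difference of 2.21 ± 0.59 (edgeR adjusted p = 0.0349). FADS1 changed by -2.08 ± 0.49 and 1.51 ± 0.75 SE, a difference of 3.58 ± 0.91 (edgeR adjusted p = 0.0249). Its level in epidermis replicate 2 is 1 count. In the organoids themselves SCD stood at 427 and 673 CPM from epidermis and 270.4, 497, 430.4, 412 and 541 from follicle, and FADS1 at 159 and 121 CPM from epidermis and 167, 72.6, 131, 114 and 123 from follicle. For both genes the organoid values of the 2 origins overlapped, while the follicle and epidermis libraries did not. Neither call was present without epidermis replicate 2 or without the later epidermis organoid library, and 1 of the 2 remained without follicle replicate 1, follicle replicate 2, the early epidermis organoid library or later inhibitor replicate 1. The SCD call was also lost with library totals as the scaling, with the replicate number as a block and when only the compared groups were fitted. With library totals, 1 member was higher and 1 lower. ELOVL3 and FA2H, both also sebaceous markers, differed in the direction of SCD (6.59 ± 1.67 and 5.30 ± 1.38 SE). The later epidermis organoid library held 267 CPM of sebaceous markers against 50.5 in the early one, with PPARG, MC5R, AWAT1, AWAT2, DGAT2L6 and MOGAT1 at 0 in both; their part was not tested.

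Set side by side with the inhibitor, organoids from epidermis had less CYP51A1 than those from follicle: 95.2 and 66.7 CPM against 181, 195 and 201 (early) and 198 and 208 (later) (log2 change -1.31 ± 0.37 SE, edgeR adjusted p = 0.0355). It was the only member called of 28, where 6.36% of all genes passed (5.85% higher and 0.516% lower). Both epidermis libraries lay below all 5 follicle libraries. All 11 sterol genes had a lower fitted level in epidermis organoids, with a median log2 difference of -0.81 against -0.32 for all genes; EBP, which shifts the sterol double bond, came next (log2 change -1.57 ± 0.48 SE, edgeR adjusted p = 0.0586). The CYP51A1 call was lost without any 1 of 6 of the 7 libraries, early follicle replicate 1 being the exception, and also with size factors as the scaling, with no filter on low counts and with the replicate number as a block.

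The Tgf-beta inhibitor was not followed by a called change in any of the 28 members, while 2.68% of all genes passed (1.92% higher and 0.758% lower). DESeq2 and limma-voom called 0 members as well, and at an unadjusted p under 0.05 edgeR gave 2, beside 1400 (14.2%) of all genes. SC5D stood at 63.0, 54.0, 53.2, 65.4 and 48.4 CPM with the inhibitor (3 early and 2 later libraries) and 37.7, 37.4, 37.3 and 39.7 without it (log2 change 0.58 ± 0.24 SE, edgeR adjusted p = 0.252). INSIG1 stood at 45.4, 38.9, 52.5, 25.3 and 24.2 CPM with and 32.3, 34.8, 18.5 and 12.7 CPM without it (log2 change 0.55 ± 0.26 SE, edgeR adjusted p = 0.345), and HSD17B7 at 113, 189, 155, 144 and 134 CPM with and 205, 197, 189.6 and 178 CPM without it (log2 change -0.40 ± 0.26 SE, edgeR adjusted p = 0.528). SC5D was higher in every inhibitor library; the other 2 overlapped. ELOVL1, an elongase of very long chains, was the 1 of 29 other fatty acid genes called (2.01 ± 0.49 SE).

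Between early and later passages no member was called, where 0.354% of all genes were (0.172% higher and 0.182% lower). DESeq2 and limma-voom also called 0, and 2 had an unadjusted p under 0.05 in edgeR, beside 711 (7.19%) of all genes. The clearest was INSIG1, at 45.4, 38.9, 52.5, 32.3 and 34.8 CPM in the 5 early follicle organoid libraries and 25.3, 24.2, 18.5 and 12.7 in the 4 later ones, so that every later library lay below every early one (log2 difference -0.99 ± 0.26 SE, unadjusted p = 0.00111, edgeR adjusted p = 0.155). SREBF2 stood at 82.7, 106, 83.6, 90.2 and 117 CPM early and 60.2, 53.4, 75.4 and 68.3 later, again without overlap (edgeR adjusted p = 0.616), and IDI1 had a log2 difference of -0.41 ± 0.27 SE. ACAT2 was higher in every later library (155, 185, 167 and 156 CPM) than in every early one (123, 132, 137, 127 and 152 CPM), with a log2 difference of 0.29 ± 0.28 SE that was not called. The inhibitor's effect at later against early passage differed for no member and for no gene of 9888 (0%) in edgeR, where 0 members and 267 of all genes had an unadjusted p under 0.05. DESeq2 called 1 gene, no member, and limma-voom 0. The smallest p were those of EBP (-0.95 ± 0.51 SE), NSDHL (0.94 ± 0.63 SE) and SCD (0.84 ± 0.60 SE) on the log2 scale.

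In differentiation media, later follicle organoids had less RNA of 9 members than in expansion medium without the inhibitor, and more of 1. That is 10 of 28 called, where 14.5% of all 9732 genes tested were (4.39% higher and 10.2% lower). The fallers were 2 of 7 mevalonate genes, 4 of 11 sterol genes, 2 of 3 tested regulators and 1 of 7 fatty acid genes, and the riser was FADS1. The median log2 change was -0.68 for the members and -0.14 for all genes. The differentiation libraries list a partly different set of entries (18113 against 20448, with 17141 shared), so the medium and a separate processing cannot be told apart.

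IDI1, the isomerase that makes dimethylallyl diphosphate, stood at 70.6 and 64.5 CPM in expansion medium and, for replicates 1 and 2 of each differentiation medium in turn (complete, without Noggin and R-Spondin-1, also without Forskolin), at 26.8, 17.3, 12.2, 4.99, 13.8 and 4.28 CPM (log2 change -2.41 ± 0.36 SE, edgeR adjusted p = 0.000187). HMGCS1, which makes HMG-CoA, stood at 214 and 226 CPM in expansion medium and 121, 20.8, 97.3, 47.4, 80.7 and 81.4 CPM in the differentiation libraries (log2 change -1.53 ± 0.37 SE, edgeR adjusted p = 0.00901). FDFT1, which joins 2 farnesyl diphosphates into squalene, stood at 133 and 113 CPM in expansion medium and 73.6, 31.2, 48.7, 27.4, 62.3 and 17.1 CPM in the differentiation libraries (log2 change -1.46 ± 0.35 SE, edgeR adjusted p = 0.0086). All 6 differentiation libraries lay below both expansion libraries for each of these. SQLE stood at 88.8 and 84.4 CPM in expansion medium and 45.2, 13.8, 24.3, 34.9, 46.1 and 51.4 CPM in the differentiation libraries (log2 change -1.27 ± 0.29 SE, edgeR adjusted p = 0.00662), and MSMO1, the C4 methyl oxidase, at 208 and 233 CPM in expansion medium and 142, 65.8, 85.2, 94.8, 78.4 and 72.8 CPM in the differentiation libraries (log2 change -1.29 ± 0.36 SE, edgeR adjusted p = 0.0218). SC5D stood at 37.3 and 39.7 CPM in expansion medium and 33.5, 24.2, 9.73, 9.98, 16.1 and 29.98 CPM in the differentiation libraries (log2 change -1.05 ± 0.32 SE, edgeR adjusted p = 0.0318), and SREBF2 at 75.4 and 68.3 CPM in expansion medium and 48.5, 24.2, 34.1, 37.4, 25.4 and 47.1 CPM in the differentiation libraries (log2 change -0.99 ± 0.32 SE, edgeR adjusted p = 0.0419). These 4 fell likewise without overlap. The calls of SC5D, SREBF2 and ELOVL6 were lost with the replicate number as a block. With later organoids with the inhibitor as the reference, those of FDFT1 and SREBF2 were lost. Fitting only the compared groups left 1 member called, IDI1.

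INSIG1 stood at 18.5 and 12.7 CPM in expansion medium and at 15.1, 20.8, 0, 0, 2.31 and 4.28 CPM in the differentiation libraries, where its fitted log2 change of -3.13 ± 0.65 SE (edgeR adjusted p = 0.0035) is not a bound, since it includes a medium with no count. ELOVL6 stood at 17.1 and 26.2 CPM in expansion medium and 5.02, 0, 9.73, 0, 18.4 and 0 CPM in the differentiation libraries (log2 change -1.89 ± 0.58 SE, edgeR adjusted p = 0.0344). It had no count in the 3 libraries numbered 2, which makes the expansion level at least 6.65-fold higher than theirs at a limit of 3 counts over the 3. For both genes 1 differentiation library or more reached the expansion range. For INSIG1 these were the 2 libraries of the complete medium, so its fall lay only in the media without Noggin and R-Spondin-1. FADS1 stood at 52.4 and 167 CPM in expansion medium and 289.5, 581, 411, 536, 470.4 and 209.9 in differentiation media, with every differentiation library higher (log2 change 1.92 ± 0.57 SE, edgeR adjusted p = 0.029).

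The 6 differentiation libraries were not alike. In all 3 media the library numbered 2 had less mevalonate and sterol RNA than the one numbered 1. The 18 genes of both steps summed to 3183, 2331 and 2742 CPM in the libraries numbered 1 and 827, 1227 and 1264 in those numbered 2, against 3049.6 and 2908 in expansion medium. FDPS alone stood at 1828, 1402 and 1699.6 CPM against 280.4, 676 and 548, and MVD, the mevalonate diphosphate decarboxylase, at 100.4, 60.8 and 59.96 against 13.8, 22.45 and 21.4. Of these 18 genes, 11 were higher in the library numbered 1 in every medium, as were 22.4% of all 9732 genes tested: ACAT2, MVD, IDI1, FDPS, FDFT1, LSS, CYP51A1, TM7SF2, HSD17B7, EBP and DHCR7. FASN, ELOVL6 and FADS2 did the same among the 7 fatty acid genes.

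Markers moved with this split. Proliferation markers summed to 266, 258 and 288 CPM in the libraries numbered 1 and 27.7, 37.4 and 29.98 in those numbered 2, and suprabasal markers to 2578, 2567 and 2604 against 11103, 14437 and 13372. Expansion libraries held 463 and 253 CPM of proliferation and 3858 and 3785 CPM of suprabasal markers. Most of the suprabasal sum in the differentiation libraries was IVL. It stood at 1901, 1857 and 1845 CPM in the libraries numbered 1 and 10051, 12768 and 12554 in those numbered 2. FLG, LOR and SCEL were higher in the library numbered 2 in every medium. KRT10 was lower there (539, 540 and 636 against 225, 392 and 326 CPM), and DSG1 and DSC1 had no such order. Total counts were 694104, 435222 and 473004 in the libraries numbered 1 and 296781, 409603 and 237864 in those numbered 2. Basal keratinocyte markers summed to 78237, 64446 and 66921 CPM in the libraries numbered 1 and 27713, 42002 and 63224 in those numbered 2, and mitochondrial genes took 15.9, 14.9 and 17.1% of counts against 12.6, 8.54 and 7.98%. The part of these markers, of depth and of the mitochondrial share in the result was not tested.

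**Figure D4:**
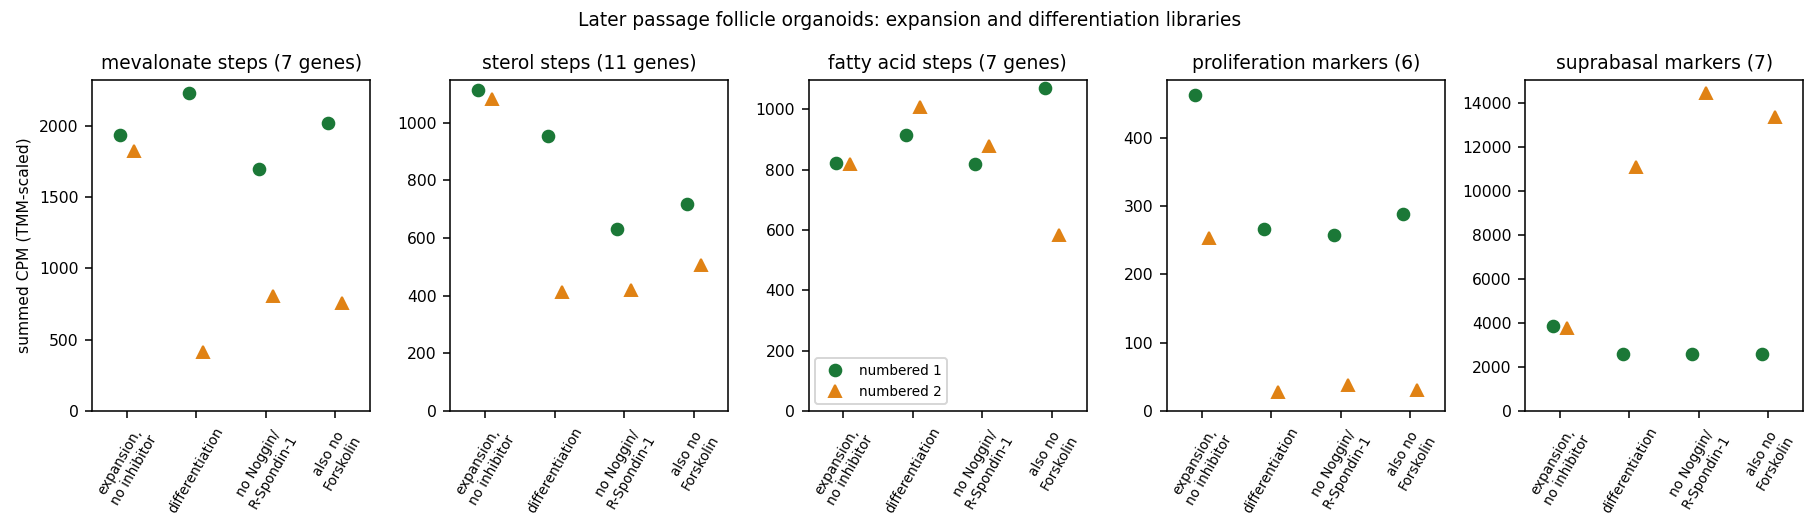
Summed CPM of the mevalonate, sterol and fatty acid genes, and of proliferation and suprabasal keratinocyte markers, in later follicle organoids in expansion medium without the inhibitor and in the 3 differentiation media, with a point per library and its replicate number as colour and shape. In each differentiation medium the library numbered 1 has more mevalonate, sterol and proliferation RNA and a lower suprabasal sum than the one numbered 2. The fatty acid sum shows no such order. Most of the suprabasal sum in the differentiation libraries is IVL, while KRT10 has the opposite order.

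Fitted without the libraries numbered 2, the comparison with expansion medium called 6 of 29 members (1 higher and 5 lower, where 8.87% of all genes passed), namely HMGCS1, IDI1, FDFT1, SQLE, INSIG1 and FADS1. Fitted without those numbered 1, it called 17 (1 higher and 16 lower, where 23% passed). FADS1 was the riser both times, with log2 changes of 1.81 ± 0.56 and 1.84 ± 0.56 SE. For FDPS the 2 values were 0.28 ± 0.31 and -1.57 ± 0.31 SE, for MVD 0.12 ± 0.35 and -1.85 ± 0.43, and for DHCR7, which performs the last reduction to cholesterol, -0.03 ± 0.35 and -1.48 ± 0.39. IDI1, at -2.03 ± 0.38 and -3.26 ± 0.50 SE, was called in both. The median of the members was -0.49 and -1.33, and that of all genes -0.28 and -0.54. Without replicate 1 of the expansion libraries 2 members passed (IDI1 and INSIG1), and without replicate 2, 5 did. IDI1 passed under every alternative that was run, and INSIG1 under every one in which it passed the filter. INSIG1 was not lower in the complete differentiation medium, with a mean of 17.9 CPM against 15.6 in expansion medium. Its call rests on the media without Noggin and R-Spondin-1. Fitted on these 4 groups alone, the comparison called 1 member, IDI1.

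Of 16 other sterol genes tested in the differentiation comparison, ABCG1, a sterol exporter, rose (4.70 ± 1.52 SE), and ACAT1, the mitochondrial thiolase (-1.92 ± 0.42 SE), and TMEM97, a sterol-responsive membrane protein (-1.19 ± 0.34 SE), fell. The ABCG1 rise lay only in the libraries numbered 2, at 76.1, 72.3 and 38.5 CPM. ABCG1 stood at 0 CPM in all those numbered 1 and at 0 and 2.11 CPM in expansion medium. Of 27 other fatty acid genes, ACSL4, which activates arachidonate (-5.86 ± 0.88 SE), and ACSL1 (-1.07 ± 0.35 SE) fell and none rose. ACSL4 stood at 13.7 and 15.2 CPM in expansion medium. In differentiation media it had counts only in replicate 1 without Noggin and R-Spondin-1, at 2.43 CPM. Its fitted change includes media with no count and is not a bound.

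Leaving Noggin and R-Spondin-1 out of the differentiation medium changed no member past the threshold, and no gene of 9732 (0%) passed in edgeR, DESeq2 or limma-voom; 3 members and 260 of all genes had an unadjusted p under 0.05 in edgeR. INSIG1 had no count in either library without the 2 factors, against 15.1 and 20.8 CPM with them, which makes the latter at least 4.85-fold higher at a limit of 3 counts over the group (unadjusted p = 7.46e-05, edgeR adjusted p = 0.726). SC5D stood at 9.73 and 9.98 CPM without and 33.5 and 24.2 with them (log2 difference -1.58 ± 0.54 SE, unadjusted p = 0.00785, edgeR adjusted p = 1), and IDI1 at 12.2 and 4.99 CPM without and 26.8 and 17.3 with them. The 2 media did not overlap for any of these 3 genes. They were picked for the smallest p among the members, so this adds no support.

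Removing Forskolin as well called no member and no gene either (0%) in edgeR, DESeq2 or limma-voom, with 1 member and 328 of all genes at an unadjusted p under 0.05 in edgeR. PMVK, phosphomevalonate kinase, stood at 6.92 and 34.3 CPM without Forskolin and 4.87 and 0 with it, from 11 and 2 counts in all (log2 difference 2.81 ± 1.23 SE, unadjusted p = 0.0329, edgeR adjusted p = 1). MVK, mevalonate kinase, stood at 20.8 and 12.8 CPM without and 9.73 and 2.49 with Forskolin. INSIG1 stood at 2.31 and 4.28 CPM without Forskolin, from 2 counts, and had no count with it, a difference that this depth cannot show. Both comparisons use the same 2 libraries that lack only Noggin and R-Spondin-1.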

How the data were processed

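Expression was measured in 23 bulk CEL-seq2 libraries of dog skin and organoids. The authors deposited an estimated count per gene and library; most values are whole and some carry fractions. BWA 0.6.2-r126 and the build CanFam3.1 are named in the submitters' processing notes. Not given in the sources used here are the annotation, the counting tool and any collapse of molecular barcodes.

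Counts were rounded to whole numbers, and 4 entries that name no gene were left out. In R 4.3.3, all 12 groups were fitted in edgeR 4.0.16 (TMM scaling, filterByExpr with a count minimum of 10 and a total of 15, quasi-likelihood test), with Benjamini-Hochberg adjustment over all 9888 genes tested (9732 for the differentiation media). Calls were made at an adjusted p under 0.05. A pooled side of a comparison is the plain mean of its groups' log2 levels. Alternatives used other scalings and filters, DESeq2 1.42.0, limma-voom (limma 3.58.1), a block for the replicate number, the compared groups only, 2 other references for the differentiation media, and each library left out. Scripts were tested on simulated data.

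The members, the lists and the other pathway genes were chosen with earlier results of these data known. Values by library are given for the called members of each comparison or, where there are none, for up to 3 with the smallest p, and for some further members chosen after their values were seen; genes of other lists are named only when called, up to 4 by p, apart from those said to be chosen after their values were seen. The reference used here held no sequences, so none is shown. Results of some genes outside the members are not reported here.

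Total counts of 86301 to 4822410 per library limit the precision of low genes; the limit of 3 counts for a count of 0 covers counting error only.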

Additional observations from a re-analysis of the deposited data

Results flagged for a closer look

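The change from tissue to organoid differed between organoids of epidermis and of follicle, by the test of the difference itself, for 2 members. For SCD the log2 change in epidermis organoids exceeded that in follicle organoids by 2.21, and for FADS1 by 3.58. The SCD call was lost with library totals, with the replicate number as a block and when only the compared groups were fitted. The values of both arms and the libraries each call rests on stand with that comparison above. The part of sebaceous markers in it was not tested.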

How the results depend on the processing

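Called members of the 28 are given below as counts under each alternative; no named member reversed its direction under any. Scaling by size factors gave 0 for epidermis against follicle organoids, and library totals gave 2 there, 1 for follicle against epidermis and 0 for epidermis organoids against epidermis. Without a filter, epidermis against whole skin gave 3 and epidermis against follicle organoids 0. DESeq2 gave 3 for epidermis against whole skin and 0 for epidermis organoids, and limma-voom gave 2 for the latter. Fitting only the compared groups gave 0 for epidermis organoids, 2 for epidermis against follicle organoids, 1 for the organoid change by origin and 1 for the differentiation media. Chosen after seeing the data, leaving out the differentiation libraries numbered 2 gave 6 members and leaving out those numbered 1 gave 17. With each library left out in turn, the count ran from 0 to 3 for follicle against epidermis, 0 to 1 for epidermis against whole skin, 5 to 16 for follicle organoids, 0 to 1 for epidermis organoids, 0 to 1 for epidermis against follicle organoids, 0 to 2 for the organoid change by origin and 2 to 14 for the differentiation media; where an arm was left with 1 library, it was assumed to vary like the other groups. The cause of these shifts was not tested.

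The libraries share only a replicate number. Over 90 pairs of same-numbered libraries, the correlation of their deviations from the group means ran from -0.394 to 0.509, and between the 3 differentiation groups from 0.402 to 0.509. In a group of 2 libraries the deviations mirror each other. Most of the 90 values therefore repeat that of the other replicate number and are not independent. With the replicate block, epidermis against whole skin gave 0 called members, epidermis against follicle organoids 0, the organoid change by origin 1, follicle organoids 13 and the differentiation media 7; the other 8 comparisons kept their count. A block in the differentiation groups alone, added after seeing the data, gave 0 for both media comparisons. Counts of all genes called moved as well, from 236 to 2494 around 1415 in the differentiation comparison and from 1389 to 3722 around 2766 for follicle organoids. Depth limits the epidermis results most, since 3 counts equal 23.4 CPM in the shallowest library.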
